A study of Mus musculus with 2 samples.

Results

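The 37 genes described here are marker genes of Kupffer cells, the resident macrophages of the liver, and of blood cells. They were taken by name in 4 groups, with 12 genes of Kupffer cells and macrophages, 10 of leukocytes and myeloid cells, 11 of lymphocytes and natural killer (NK) cells and 4 of erythroid cells. All 37 were found among 22238 protein-coding genes of GENCODE M1 (mm9), with Spi1 listed there under an older symbol. A gene was called occupied where the midpoint of a GATA4 occupied site (OS), a peak in the common list of 4409, lay in the gene or within 10 kb of it. The rule for the genes uses their names and no measured value, though they were proposed with earlier results of these data known. The peak lists give positions and no peak heights.

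GATA4 is a zinc finger transcription factor that binds the DNA word WGATAR, in which W is A or T and R is A or G. In the liver it is known from endothelial cells and hepatocytes, whereas the related factors GATA1 and GATA2 act in erythroid and early blood cells and GATA3 in T cells. Kupffer cells and blood cells rely on other lineage factors, such as PU.1 in macrophages. The words that GATA factors bind are alike, so these genes carry possible GATA sites whichever factor uses them.

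GATA4 ChIP was performed on whole livers of C57BL/6 x Sv129 mice aged 2-3 months, with the C-20 antibody to GATA4. That age is from the sample labels, and the study's methods give a somewhat later range. The labels give 1 ChIP sample and 1 input sample, and DNA that was not immunoprecipitated served as input. The ChIP was done on 2 biological replicates, each pooled from 2 mice, and the input was likewise pooled over replicates, but the deposited peaks are those of both together, so no value per replicate can be given and no test was run. In bulk liver, a site occupied in few cells and a site weakly occupied in many cannot be told apart. ChIP-seq measures no transcripts, so the gene lists carry the names of cell types while the data hold no expression to check them against.

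The stretches below are shown because they are the OS sequence at the genes with one and let each GATA word be seen in its surroundings. They were read from the forward strand of mm9 (NCBI Build 37), and capitals mark WGATAR or its complement, except in OS 1633, where they mark the shorter GATA. The intronic Id3 stretch is chr4:135700643-135700708 and the upstream Id3 stretch is chr4:135696245-135696367. The Irf8 stretch is chr8:123276126-123276188, and the stretch near Fcer1g, between Apoa2 and Tomm40l, is chr1:173154021-173154171. The stretch near Cd79a, in Arhgef1, is chr7:25689246-25689338, and that near Nkg7, at the start of Etfb, is chr7:50699439-50699504. The last, near Siglec1, is chr2:130916561-130916616 and lies in a peak of the MACS2 list that is no common OS.
Id3, OS 478: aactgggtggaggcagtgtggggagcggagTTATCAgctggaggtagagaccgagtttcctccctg
Id3, OS 3883: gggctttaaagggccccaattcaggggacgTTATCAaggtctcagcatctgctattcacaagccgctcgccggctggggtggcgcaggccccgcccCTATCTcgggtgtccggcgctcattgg
Irf8, OS 2311: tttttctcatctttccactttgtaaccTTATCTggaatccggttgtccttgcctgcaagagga
Fcer1g, OS 441: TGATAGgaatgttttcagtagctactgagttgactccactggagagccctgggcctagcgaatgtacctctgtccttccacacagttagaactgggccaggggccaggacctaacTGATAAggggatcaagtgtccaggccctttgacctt
Cd79a, OS 1633: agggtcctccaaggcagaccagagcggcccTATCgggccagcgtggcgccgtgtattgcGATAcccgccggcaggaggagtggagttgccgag
Nkg7, OS 2879: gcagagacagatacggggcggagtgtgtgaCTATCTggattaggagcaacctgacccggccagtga
Siglec1, MACS2 peak 5558: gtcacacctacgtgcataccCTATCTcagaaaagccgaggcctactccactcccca

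Of the 37 genes, 5 were occupied, which are Id3, Irf8, Fcer1g, Cd79a and Nkg7, and together they held 6 OS. This was 13.5% of the genes (Wilson 95% interval 5.91 to 28.0%), beside 13.7% of all protein-coding genes (3043 of 22238). The share of the blood and Kupffer cell genes was thus at the background, and the count says nothing particular about them. Id3 alone held more than 1 OS, as did 672 protein-coding genes (3.02%). All 6 OS had a peak in the SPP list and one in the MACS2 list, the lists of the 2 callers behind the common one.

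The 6 OS fell into 2 kinds by their neighbours. For the 3 OS at Id3 and Irf8, the nearest transcription start site (TSS) of any protein-coding gene was that of the member. For the 3 OS at Fcer1g, Cd79a and Nkg7, it was that of Apoa2, Arhgef1 and Etfb. An occupied gene that was also the gene of the nearest TSS made up 2 of 5 members (40.0%), beside 2204 of the 3043 occupied protein-coding genes (72.4%). Of all genes, these were 5.41% of the members and 9.91% of the background, and no test was made of either difference.

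**Figure D1:**
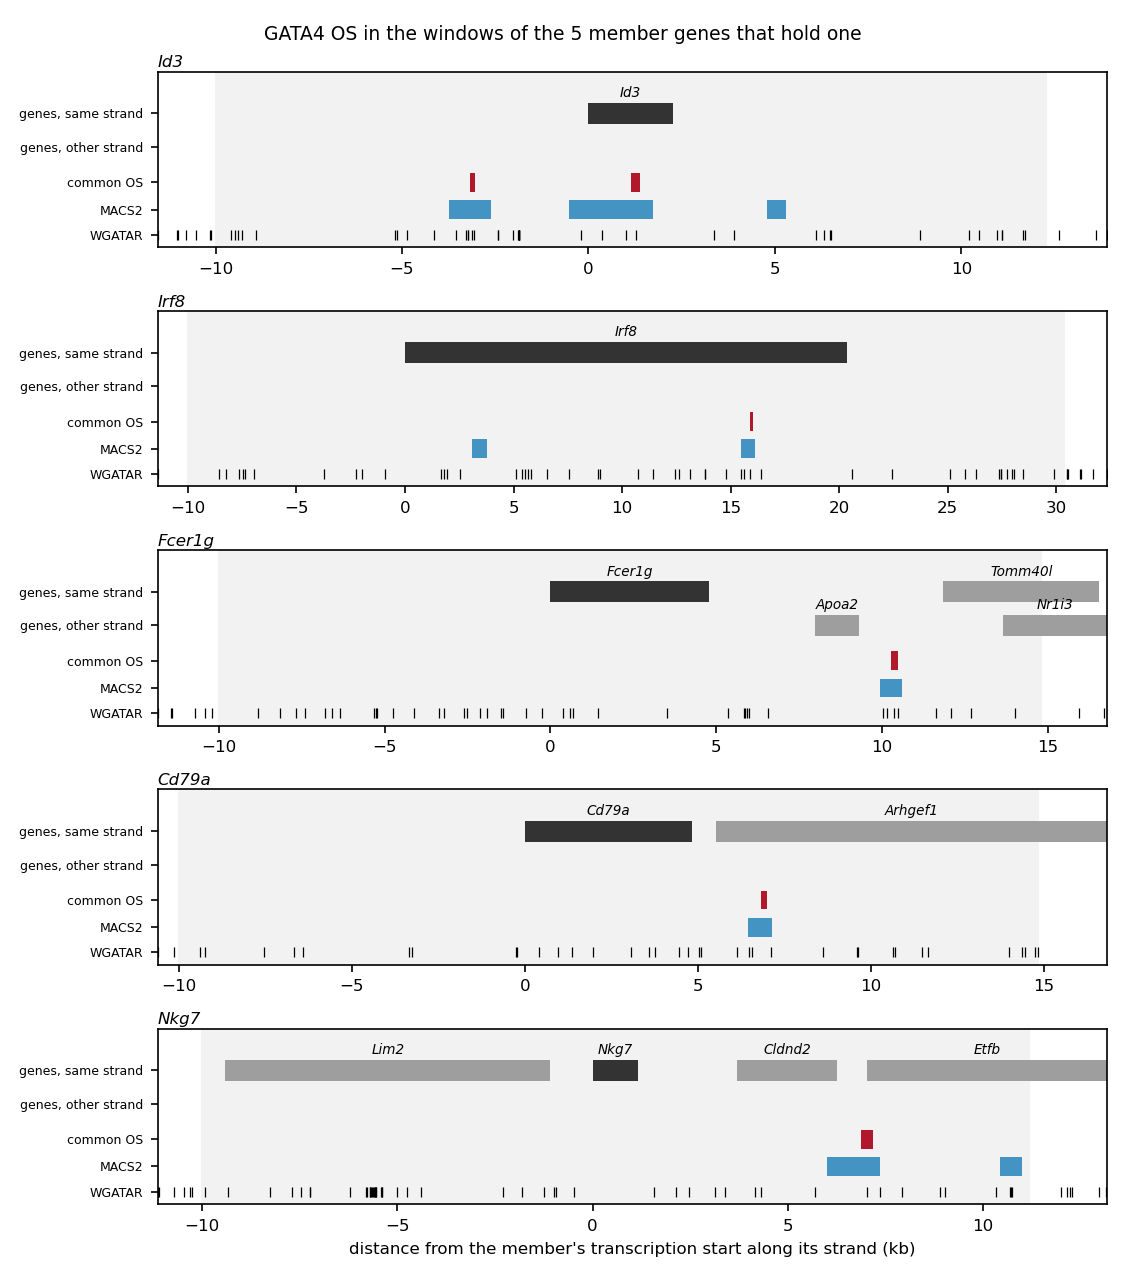
Windows of the 5 occupied genes, with the distance from the member's TSS along its strand in kb on the horizontal axis; dark bars are the member, grey bars the neighbouring genes that the same OS lies in, within 10 kb of or nearest to (Gm20388, which overlaps Irf8, and other genes are not drawn), red bars common OS, blue bars MACS2 peaks, ticks WGATAR words, and the shaded area the gene with 10 kb on each side. The OS inside Id3 and Irf8 and upstream of Id3 are set against those of Fcer1g, Cd79a and Nkg7, which lie beyond or in a neighbour.

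Id3 encodes an inhibitor of basic helix-loop-helix factors that is known to be needed for Kupffer cells and is also made in endothelial cells and lymphocytes. The gene (ENSMUSG00000007872.3) is only 2259 bp long, on the plus strand at chr4:135699412-135701670. OS 478, at chr4:135700559-135700798, was 240 bp wide and lay in intron 2, 1266 bp downstream of the TSS, with 1 WGATAR (read as TGATAA) 3 bp from its midpoint. The number of a peak is its place in the list, and what the numbering follows is not stated in the files. To set thresholds, the study's methods ranked the SPP calls on their signal and the MACS2 calls on their p-values, and whether the deposited numbers keep that order was not tested.

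OS 3883, at chr4:135696239-135696367, lay 3109 bp upstream of the Id3 TSS, was 129 bp wide and held 2 WGATAR words, TGATAA and AGATAG. Its place was in the last part of the list, after 88.1% of the peaks, against 10.8% for OS 478. The 2 OS are the only ones in the Id3 window, and no other protein-coding gene had them within 10 kb. The next nearest TSS, that of the cell cycle factor gene E2f2, was 27631 bp from OS 478 and 32006 bp from OS 3883.

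The MACS2 peak over OS 478 reached from 135698887 to 135701149 and so covered the Id3 TSS. With 2263 bp it was wider than 99.9% of the MACS2 peaks, whose median width was 618 bp, and the one over OS 3883, at 1128 bp, was wider than 92.3%. MACS2 alone called a further peak 2788 bp downstream of Id3 (chr4:135704211-135704706), which held no WGATAR and no GATA. Id3 thus had 3 peaks in the MACS2 list and 2 in the common list.

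Irf8 encodes an interferon regulatory factor that directs the development of monocytes, dendritic cells and macrophages and is made in B cells too. The gene (ENSMUSG00000041515.3) lies on the plus strand at chr8:123260258-123280594. OS 2311, at chr8:123276126-123276271, was 146 bp wide and lay in intron 6 of the longest transcript, 15940 bp from its TSS and 12308 bp from the nearest Irf8 TSS. It held 1 WGATAR (read as AGATAA) 43 bp from the midpoint. The annotation also puts it in Gm20388, a protein-coding gene model that overlaps Irf8, so Irf8 shares its OS with that model.

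MACS2 alone called a second Irf8 peak at chr8:123263335-123264032, in intron 1 of the longest transcript and 207 bp from another Irf8 TSS. That peak held no WGATAR but 5 GATA words, and it stood at 5101 among 5867 MACS2 peaks. The peak nearest to an Irf8 TSS was therefore called by 1 of the 2 callers only.

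The other 10 Kupffer cell and macrophage genes had no OS within 10 kb. Clec4f, a lectin receptor made by Kupffer cells among liver cells, was 221991 bp from the nearest OS, which lay in Tet3. For Timd4, a receptor for phosphatidylserine on resident macrophages, the distance was 732873 bp, and for Marco, a scavenger receptor, 844535 bp. These 3 genes were farther from an OS than the median protein-coding gene, at 156832 bp. The median over the 12 genes of the group was nearer, at 117882 bp. Cd5l, which encodes a secreted protein of tissue macrophages, was 138152 bp away, Vsig4, a complement receptor gene, 112158 bp and Emr1, the gene of the F4/80 antigen, 111013 bp. Csf1r, the receptor that macrophages need to survive, was 310759 bp from the nearest OS.

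Spi1, the gene of PU.1, and Cd68, the gene of a lysosomal glycoprotein, were the closest of the unoccupied macrophage genes. OS 2515 lay 37347 bp from Spi1 but inside Madd, and the nearest OS of Cd68 lay 49904 bp from it, with BC096441 as the nearest TSS. Siglec1, the sialoadhesin gene (CD169), was 123607 bp from the nearest OS. It was the only gene to gain a call in the MACS2 list, by a peak of 422 bp at chr2:130916561-130916982, 4270 bp upstream, with 1 WGATAR (read as AGATAG). That peak stood at 5558 of 5867, and SPP had none there.

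Among the 10 leukocyte and myeloid genes, only Fcer1g, which encodes the signalling chain shared by several Fc receptors, was occupied. OS 441, at chr1:173154021-173154231, was 211 bp wide and lay 5577 bp downstream of the gene (chr1:173159703-173164496, minus strand). It held 2 WGATAR words, TGATAG and TGATAA. The OS was 1059 bp from the TSS of Apoa2, an apolipoprotein gene of hepatocytes, and 1481 bp from that of Tomm40l, and Nr1i3, a nuclear receptor gene of hepatocytes, had it within 10 kb as well.

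The other 9 genes of that group were unoccupied in all 3 lists. Cx3cr1, the fractalkine receptor of monocytes, and Tyrobp, the gene of the adaptor DAP12, were 37537 and 40074 bp from an OS, with Xirp1 and Lrfn3 as the nearest TSS. Itgam and Itgax, the genes of CD11b and CD11c, lie side by side and shared their nearest OS, at 166900 and 233807 bp, 123 bp from the TSS of Vkorc1. Ptprc (CD45), Laptm5, a lysosomal gene of blood cells, Lyz2 (lysozyme), and the chemokine receptor gene Ccr2 were 168354 to 335405 bp away. Cd14, a coreceptor for lipopolysaccharide, was the most remote, at 1205949 bp.

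In the lymphocyte and NK cell group, 2 of 11 genes were occupied. Cd79a encodes a signalling chain of the B cell receptor, and OS 1633, at chr7:25689230-25689392, lay 2095 bp downstream of it (chr7:25682400-25687216, plus strand). That OS was 163 bp wide and sat in Arhgef1, a guanine nucleotide exchange factor gene, 115 bp from its TSS. It was the one member OS without WGATAR, though it held 2 GATA words. The partner gene Cd79b was 67938 bp from an OS, which lay 81 bp from the TSS of Icam2, an adhesion gene of endothelial cells.

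Nkg7 encodes a granule protein of NK cells and cytotoxic T cells. OS 2879, at chr7:50699305-50699624, was 320 bp wide and lay 5848 bp downstream of it (chr7:50692443-50693616, plus strand), 14 bp from the TSS of Etfb, a gene of the mitochondrial electron transfer flavoprotein. It held 1 WGATAR (read as AGATAG). MACS2 alone called a further peak 9538 bp from Nkg7, at chr7:50702875-50703433, inside Etfb and with 3 AGATAA words. The OS was also within 10 kb of Lim2 and Cldnd2, so 4 genes were called by it.

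None of the members Cd3e, Cd3d, Cd4 and Cd8a was occupied, too few genes to set beside the 13.7% of all protein-coding genes. Cd3e and Cd3d, genes of the T cell receptor complex that lie next to each other, were 96628 and 119166 bp from the same OS, in Amica1. The coreceptor genes Cd4 and Cd8a were 144956 and 714138 bp away. The granzyme genes Gzmb and Gzma were 131632 and 331895 bp away, Ncr1, the gene of an activating NK cell receptor, 157727 bp, and Ms4a1, the CD20 gene of B cells, 234482 bp. The lymphoid genes without an OS were thus at distances that spread to both sides of the median gene.

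None of the 4 erythroid genes was occupied (0.0%, Wilson 95% interval 0.0 to 49%), an interval too wide to set them apart from the background. Hba-a1, an adult globin gene, was the farthest of all 37 genes from any OS, at 1832464 bp, and Hbb-b1, another, came next after Cd14, at 1139273 bp. Epor, the erythropoietin receptor gene, and Klf1, an erythroid transcription factor gene, were at 34636 and 44955 bp. The OS nearest to Epor lay in Tmem205, and that nearest to Klf1 was 16 bp from the TSS of Farsa.

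**Figure D2:**
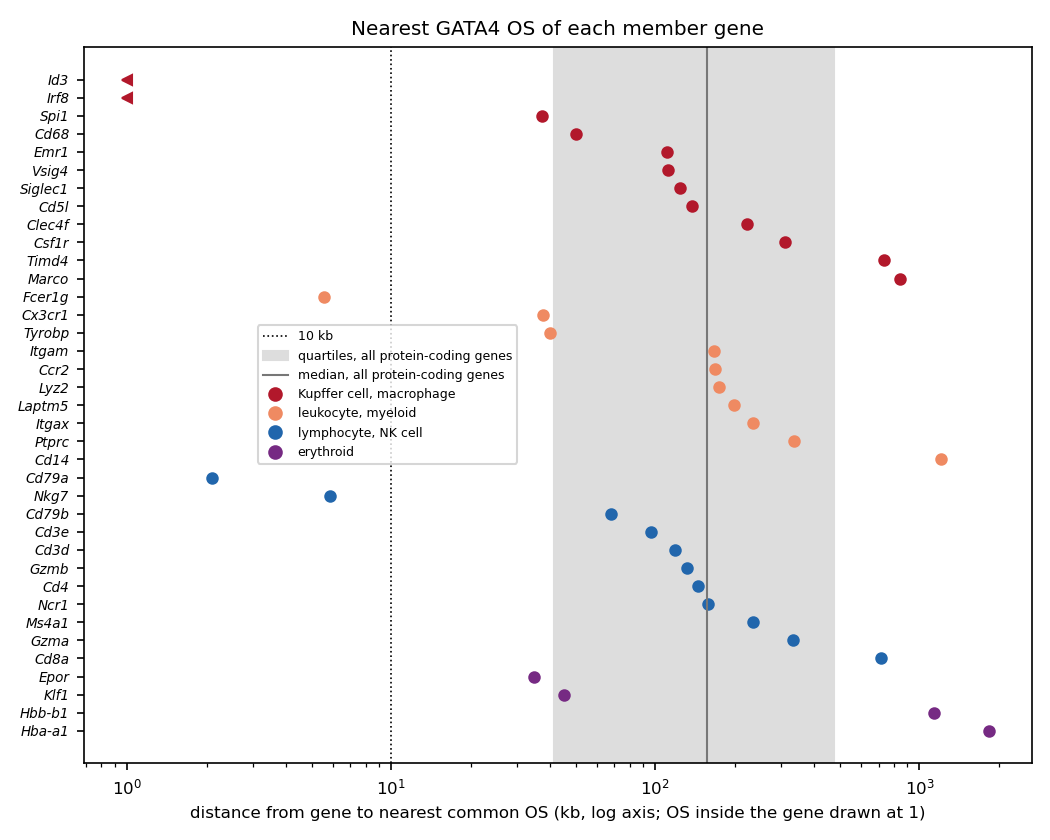
Distance from each member gene to the nearest common OS, in kb on a log axis, by group. Each point is 1 gene, triangles drawn at 1 are genes with an OS inside, the grey band holds the middle quartiles of all protein-coding genes (41389 to 476852 bp) and the grey line is their median, 156832 bp. A gap separates the 5 occupied genes, at up to 5848 bp, from the others, which start at 34636 bp.

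The 32 unoccupied genes were 34636 to 1832464 bp from an OS, with a median of 162313 bp, so none was close to the 10 kb limit. The last gene inside the limit was Nkg7 at 5848 bp, and the first outside was Epor. Over all 37 genes the median distance was 138152 bp (quartiles 44955 and 234482 bp), and over 22208 protein-coding genes on chromosomes with an OS it was 156832 bp (41389 and 476852 bp). More than 100 kb separated 24 of the 37 genes (64.9%) from any OS, and 59.9% of all genes. The medians of the Kupffer cell and macrophage, myeloid, lymphoid and erythroid genes were 117882, 171019, 131632 and 592114 bp.

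A narrower reach gave fewer genes in step with the background. Within 5 kb, 3 of 37 genes (8.11%) had an OS, beside 11.4% of all protein-coding genes, and these were Id3, Irf8 and Cd79a. With the OS in the gene body, 2 genes remained (5.41%), Id3 and Irf8, beside 7.7%. Within 50 kb, 11 genes (29.7%, Wilson 95% interval 17.5 to 45.8%) had 15 OS, beside 27.7%. The 6 genes added there were Cd68, Spi1, Cx3cr1, Tyrobp, Epor and Klf1, and the nearest TSS was a member's for 3 of the 15 OS, the same 3 at Id3 and Irf8.

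In the SPP list, 5 genes held 6 peaks, beside 14.5% of all genes, and no peak was called by SPP alone. In the MACS2 list, 6 genes (16.2%) held 10 peaks, beside 17.4%, with Siglec1 as the gene added. Of these 10 peaks, 6 matched the common OS and 4 were called by MACS2 alone, at Siglec1, Id3, Irf8 and Nkg7. At the member genes the callers thus differed by 4 peaks that SPP lacked.

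WGATAR was common in the windows of these genes, and few of the words lay in an OS. No such share was taken over all protein-coding genes, so whether that of the members is low cannot be said. The 37 windows, each a gene with 10 kb on both sides, held 3357 WGATAR words, 2.28 per kb, and 7 of them (0.209%) lay in an OS. These and the counts below are sums over genes. A word in overlapping windows, as of Itgam and Itgax or of Cd3d and Cd3e, was counted for each gene. Windows of the unoccupied genes held between 21 words, at Tyrobp, and 418, at Emr1. The windows of 25 liver endothelial genes held 4836 words, 2.18 per kb, of which 64 (1.32%) lay in an OS, and those of 24 hepatocyte genes held 2598, 2.41 per kb, of which 12 (0.462%) did. Those of 24 stellate cell genes held 3809 words, 2.44 per kb, and none of these lay in an OS. The density of the word was therefore alike in these lists while the shares in OS differed, and this contrast was not tested.

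Of the 6 member OS, 5 held a WGATAR (83.3%, Wilson 95% interval 43.6 to 97%), beside 82.9% of all common OS and 31.9% of windows of equal width 5 kb to the right. GATA was in all 6, beside 93.4% of all OS. AGGAAG, the core word of ETS factors such as PU.1, was in 3 member OS, at Id3 (OS 478), Irf8 and Nkg7, beside 42.8% of all OS and 23.5% of the shifted windows. CANNTG, the E-box, was in 3 member OS (all OS 60.3%, shifted windows 65.0%), and TGTGGT, the word of RUNX factors, in 1, OS 478 at Id3 (11.7% and 15.1%). AGGTCA, the word of nuclear receptors, was in OS 441 beside Apoa2 (24.3% and 13.6%). TGANTCA, bound by AP-1, and TGTTTAC, bound by FOXA factors, were in none of the 6, beside 7.55% and 6.26% of all OS. All words were searched on both strands with no mismatch. With only 6 OS, these counts are descriptions.

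Promoters of unoccupied genes could also hold WGATAR. RefSeq promoter sequences (GRCm38.p6), taken as the 250 bases before the start, matched 27 of the 37 genes, and 7 of these (25.9%) held the word, beside 27.1% of 27025 promoters. The 7 genes were Cd5l, Itgax, Cx3cr1, Ccr2, Hba-a1, Epor and Klf1, and none was occupied. They are too few to set beside the 13.7% of all protein-coding genes that were. The occupied share of all genes with such a promoter was not taken. The 3 stretches below show the words of a Kupffer cell gene and of 2 erythroid genes, in the direction of transcription, with WGATAR or its complement in capitals. Their sequences each matched mm9 once near the gene, at chr3:87161646-87161802 (plus strand) for Cd5l, chr9:21768039-21768104 (minus strand) for Epor and chr8:87425771-87425836 (plus strand) for Klf1.
Cd5l promoter: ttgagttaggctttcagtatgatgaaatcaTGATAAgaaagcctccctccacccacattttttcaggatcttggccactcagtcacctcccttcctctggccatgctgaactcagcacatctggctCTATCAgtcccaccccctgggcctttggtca
Epor promoter: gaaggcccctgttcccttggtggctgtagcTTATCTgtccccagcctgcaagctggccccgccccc
Klf1 promoter: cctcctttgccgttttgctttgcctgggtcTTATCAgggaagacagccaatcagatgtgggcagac

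The Cd5l promoter held TGATAA 127 bp and TGATAG 31 bp before the start, and the nearest OS was 151374 bp from the closer word. The AGATAA of Epor lay 54 bp before the start and 39364 bp from the nearest OS, and the TGATAA of Klf1 80 bp before the start and 44931 bp from it. The nearest MACS2 peaks were 39385 and 44620 bp from the words of Epor and Klf1. The OS nearest to Epor, in Tmem205, carried the same AGATAA word as the Epor promoter, where no OS was called. That OS stretch, forward strand of mm9, is chr9:21728696-21728761.
OS 1452, in Tmem205: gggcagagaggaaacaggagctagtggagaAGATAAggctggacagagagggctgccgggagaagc

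Other genes of the same cell types were read in the same way. Of 24 further macrophage genes, 7 were occupied (29.2%, Wilson 95% interval 14.9 to 49.2%) by 10 OS, beside the background of 13.7%. Of these, 3 held 2 OS each, namely Mrc1, the mannose receptor gene, Slc40a1, the gene of the iron exporter ferroportin, and Mertk, the gene of a receptor for dying cells. Mrc1 stands in the endothelial list too. Fcgr4, Maf, Axl and Ctss held 1 OS each. The interval of the further genes starts just above the background, at 14.9% beside 13.7%. Mrc1 counts towards that share, and the list was not read without it. The difference was not tested, and the list was chosen with earlier results known. The Kupffer cell and macrophage members, at 2 of 12 (16.7%, 4.7 to 44.8%), had an interval that overlaps it and includes the background.

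Of 20 further lymphocyte genes, 3 were occupied (15%, Wilson 95% interval 5.24 to 36.0%), Cd28, Lck and Prf1, each by 1 OS. For only 1 of these 3 OS did the nearest TSS belong to a gene of the list. The OS of Lck and Prf1 lay 5072 and 9686 bp outside the gene. Of 17 further erythroid genes found, 3 were occupied (17.6%, 6.19 to 41.0%) by 10 OS. Zfpm1, the gene of the GATA cofactor FOG1, held 7 of these 10, Tal1, a blood and endothelial transcription factor gene, held 2, and Nfe2 held 1. The study also detected FOG1 in purified hepatocytes and reports that GATA4 was lost from FOG1 sites there after hepatocyte-specific Gata4 excision. It reports the same loss in liver cells not purified for hepatocytes, and takes occupancy at the examined genes to be confined to hepatocytes. From the peak lists alone, the cells in which the Zfpm1 OS were occupied cannot be told. The myeloid members stood at 1 of 10 (10%, 1.79 to 40.4%) and the lymphoid members at 2 of 11 (18.2%, 5.14 to 47.7%), with intervals that all include the background.

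Lists of the other liver cell types were read for comparison, and like the members they were chosen with earlier results of these data known. Their shares are therefore descriptions. Of 25 liver endothelial genes, 21 were occupied (84.0%, Wilson 95% interval 65.3 to 93.6%), and of 24 hepatocyte genes found, 11 (45.8%, 27.9 to 64.9%). Of 24 stellate cell genes, 2 were occupied (8.33%, 2.32 to 25.8%). The interval of the 37 Kupffer and blood cell genes, 5.91 to 28.0%, lies below that of the endothelial genes. It overlaps that of the stellate cell genes and meets that of the hepatocyte genes only at its edge (28.0 against 27.9%). OS per Mb of window, with an OS counted for each gene that held it, were 4.08 for the 37 genes and 20.3 for the endothelial genes. They were 10.2 for the hepatocyte genes, 1.28 for the stellate cell genes and 2.8 for all protein-coding genes. The median window was 62878 bp for the endothelial genes and 30848 bp for the 37 genes. It was 31166 bp for the hepatocyte genes and 35533 bp for the stellate cell genes. None of the differences between lists was tested.

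**Figure D3:**
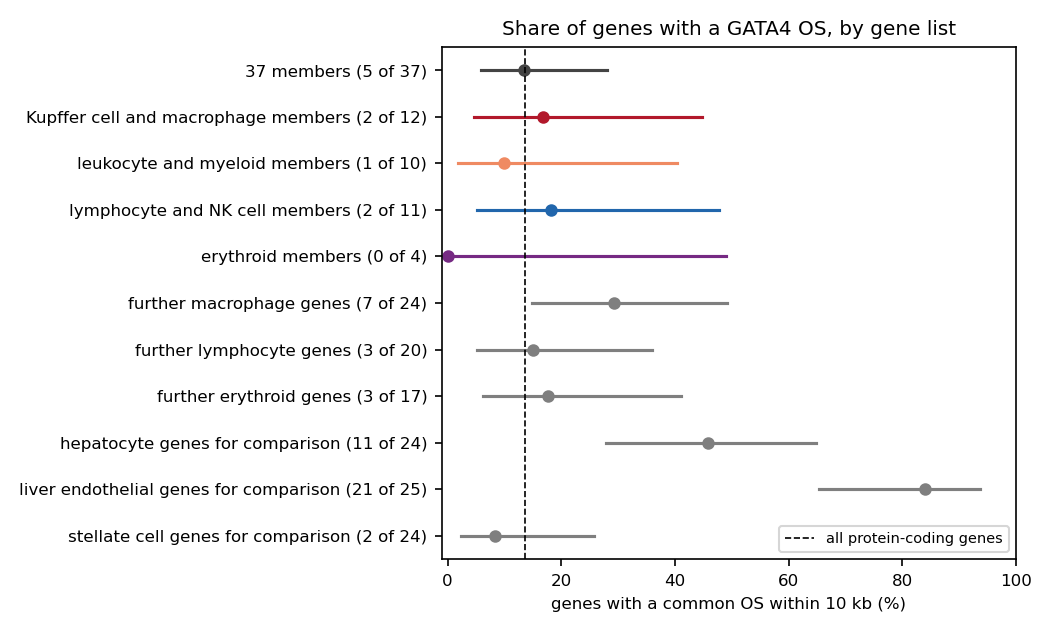
Share of genes with a common OS in the gene or within 10 kb, in percent, for the 37 members, their 4 groups and 6 further lists; points are shares, bars Wilson 95% intervals, labels the number of occupied genes of those found, and the dashed line all protein-coding genes at 13.7%. The members and their groups have intervals that include the dashed line.

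Genes with longer windows were more often occupied, and the windows of the 37 genes were shorter at the median than those of all genes. In 5 classes of near-equal size by window length, 4.52, 10.3, 12.1, 16.8 and 24.7% of protein-coding genes were occupied, from the shortest to the longest. The median window was 30848 bp for the 37 genes and 35593 bp for all. The classes held 6, 12, 10, 6 and 3 members, and 2, 2, 1, 0 and 0 of these were occupied, so all 5 occupied genes were in the 3 shorter classes. A mean of the classes' shares weighted by the members was 12.1%, beside the 13.5% of the members.

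**Figure D4:**
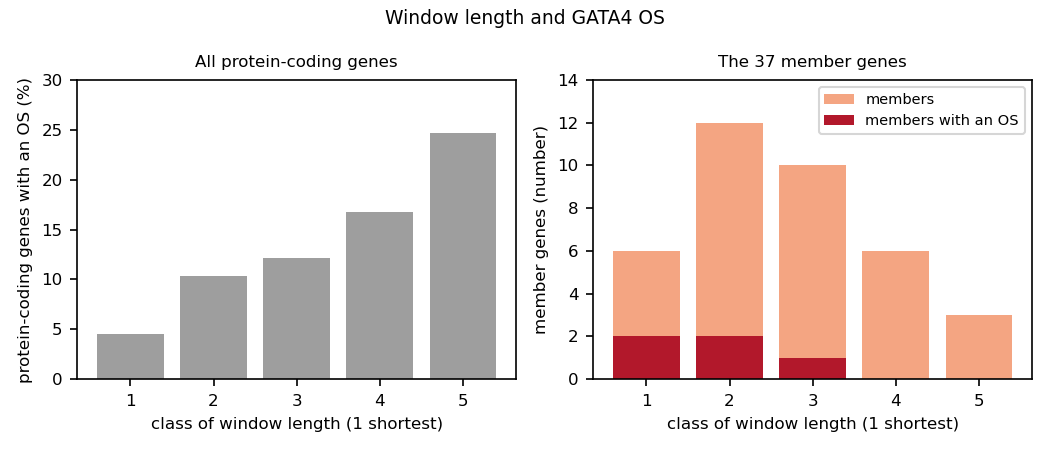
Left, share of all protein-coding genes with an OS (percent) by class of window length (1 shortest, 5 longest), and right, number of member genes (light) and of occupied member genes (dark) in each class. The share of all genes rises from 4.52 to 24.7%, and the occupied members lie in the first 3 classes.

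Reads were kept only where they had a single placement, so the share of sequence found once bears on where a peak could be seen. Of the 48-base words in the 37 windows, 73.0 to 98.9% occurred once in the genome, with a median over windows of 95.5%. Of 19950 words sampled from windows of protein-coding genes, with more words from longer windows, 91.2% did. That share pools words while the median takes each window once, so the values do not show that the member windows are more unique. The windows of 28 members were at or above 91.2%. All words of the 6 OS were unique. The lowest windows were those of Emr1 (73.0%), Hbb-b1 (73.2%), Vsig4 (76.6%) and Ncr1 (80%). Inside the gene itself, 5.03% of the words of Hba-a1 and 34.5% of those of Hbb-b1 were unique, as globin genes have near-identical copies, so few reads could be placed uniquely there.

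**Figure D5:**
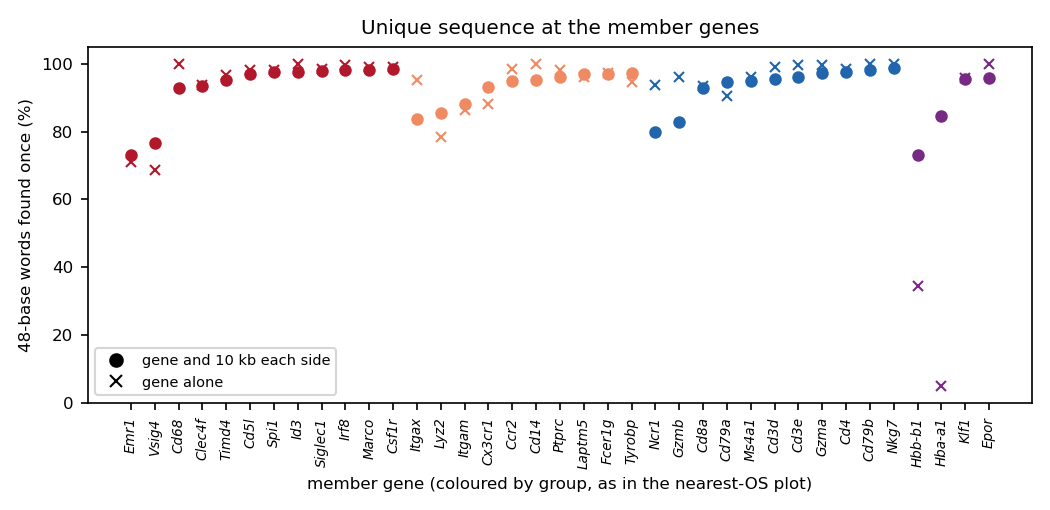
Percent of 48-base words found once in the mm9 genome, for each member gene with 10 kb on both sides (circles) and for the gene alone (crosses), ordered within groups and coloured as in the plot of nearest OS. The windows of 28 members lie at or above 91.2%, the pooled share of words sampled from windows of protein-coding genes. The genes alone of Hba-a1 (5.03%) and Hbb-b1 (34.5%) lie lowest.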

How the data were processed

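Peaks of 1 GATA4 ChIP sample, called against 1 input sample (each pooled from replicates), were analysed, and no read counts or depths are in the files used here. Reads were aligned by the authors to mm9 with Bowtie 0.12.7, uniquely placed reads were kept, peaks were called with SPP and MACS2 2.0.10 on merged replicates with thresholds set from their reproducibility, and both lists were intersected with bedtools 2.16.1 (versions from the submitters' processing notes). The deposited score is 1000 in every peak, so it was not used. The common, SPP and MACS2 lists held 4409, 4811 and 5867 peaks, with median widths of 190, 199 and 618 bp.

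Genes were those of GENCODE M1, counted by symbol, with older symbols matched through RefSeq synonyms. Ahsp and Tf of the comparison lists were not matched. Distances run from a peak's midpoint to the gene or TSS. The member genes and all lists were chosen with earlier results of these data known. Every member is accounted for, and further genes were named where they held 2 or more OS, at most 5 per list, while those with 1 OS were named after their values were seen. Shares carry Wilson 95% intervals, which cover counting error only and treat genes as separate although neighbours share OS. Words were matched exactly on both strands. Interval and word searches were checked on simulated data (800 of 800 and 400 of 400 right). Python 3.11.15, numpy 2.4.6, scipy 1.17.1, pysam 0.24.0, numba 0.67.0, matplotlib 3.10.9 and samtools 1.23.1 were used.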

Additional observations from a re-analysis of the deposited data

How the results depend on the processing

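The number of occupied member genes, 5, was 3 within 5 kb, 2 in the gene body, 11 within 50 kb, 3 in the upper part of the common list (numbers up to 2204), 2 with each OS given to its single nearest TSS within 50 kb, and 3 without OS in another gene's body. Without OS in another gene's body, the 3 genes were Id3, Fcer1g and Nkg7, with 4 OS. Irf8 fell out because its OS also lies in Gm20388, and Cd79a because its OS lies in Arhgef1. The 6 OS became 2 in the gene body, 15 within 50 kb, 10 in the MACS2 list, 3 in that upper part and 3 by single nearest TSS. Taking only OS whose nearest TSS of any protein-coding transcript is the member's, a choice made after seeing the data, gave 2 genes and 3 OS. The background of 13.7% was 11.4% within 5 kb, 7.7% in the gene body, 27.7% within 50 kb, 14.5% in the SPP list, 17.4% in the MACS2 list, 7.24% in the upper part, 11.0% by single nearest TSS, 10.9% over all 33924 genes of the annotation and 13.1% over genes in the members' range of window length. The share of member OS with WGATAR, 83.3%, was 100% when WGATA or GATAR sufficed and 100% in 500 bp around the midpoint. Calling by overlap and by the longest transcript left 5 genes and 6 OS. No paired analysis was possible because the result comes from no test and the lists cover both replicates together. With no depth per peak, a site missing from the lists could not be told from one too weakly covered to be called.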
